A study of Mus musculus with 9 samples.

Results

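Collagen chain genes, one of the main gene groups of the extracellular matrix, were followed in mouse gastrocnemius, the large calf muscle, by RNA sequencing. The members were all protein-coding genes whose symbol has the form Col, a number, a and a number, and 44 of the 55416 genes in the table matched. They fell into 11 fibrillar genes, 6 basement membrane (type IV) genes, 6 type VI genes and 21 others. After a filter on low counts 36 of the 44 were tested, namely 10 fibrillar, 6 basement membrane, 5 type VI and 15 other genes. The 9 libraries formed 3 groups of 3. AET_MET mice were trained on a motorized treadmill for 60 minutes a day on 5 days a week over 8 weeks and had metformin, an oral glucose-lowering drug, at 2 mg/mL in their drinking water. AET mice had the same training without the drug, and SED mice were sedentary. The labels name no strain, sex, age or genotype, and metformin without training was not analysed here, so an action of the drug by itself and an action on the response to training cannot be told apart. Nothing in the labels ties a library to its own mouse, and the spread behind each p-value may therefore be technical. Library names share a stem within a group, so such a batch and the group cannot be told apart.

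Collagens are secreted proteins whose chains wind into triple helices. Fibrillar collagens, mainly types I and III in muscle, assemble into the load-bearing fibrils of tendon, perimysium and endomysium. Type IV collagen forms the sheet of the basement membrane around each fiber and capillary, type VI forms beaded filaments that link this sheet to the fibrils, and the other families decorate fibrils, anchor membranes or span the cell surface. Fibroblasts and tendon cells make most fibrillar collagen, and fibers, endothelial cells and pericytes lie on basement membrane.

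Of the 6 collagen genes with a lower level in AET_MET than in AET muscle (adjusted p under 0.05), 5 have a stretch before the RefSeq transcription start that holds no annotated exon, and these stretches are shown so that the letters before the start of these genes can be compared. RefSeq on GRCm38.p6 gave a window of 250 bases before the start for 35 of the 44 collagen genes. Each stretch runs 5′ to 3′ on the gene's strand, and capitals mark matches to 3 motifs searched on both strands, none of which overlapped another here. They were the GC box, spelled GGGCGG on the gene's strand and, where it lies on the opposite strand, CCGCCC. The CCAAT box was spelled CCAAT, with the opposite-strand form ATTGG, and the TATA box was spelled TATAAA, with the opposite-strand form TTTATA.
Col1a2, chr6:4505370-4505492, plus strand: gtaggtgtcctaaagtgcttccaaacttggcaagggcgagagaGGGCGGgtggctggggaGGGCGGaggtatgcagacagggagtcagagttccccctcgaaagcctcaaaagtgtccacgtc
Col5a3, chr9:20815068-20815317, minus strand: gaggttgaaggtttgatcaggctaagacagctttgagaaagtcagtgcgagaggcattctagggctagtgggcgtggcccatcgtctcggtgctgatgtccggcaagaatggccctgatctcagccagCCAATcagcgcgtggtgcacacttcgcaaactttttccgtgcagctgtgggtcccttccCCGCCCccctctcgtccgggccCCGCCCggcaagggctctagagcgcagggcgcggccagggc
Col6a1, chr10:76726169-76726294, minus strand: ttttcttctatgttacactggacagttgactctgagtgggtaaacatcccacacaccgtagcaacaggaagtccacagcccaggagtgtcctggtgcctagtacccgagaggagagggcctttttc
Col6a2, chr10:76623631-76623880, minus strand: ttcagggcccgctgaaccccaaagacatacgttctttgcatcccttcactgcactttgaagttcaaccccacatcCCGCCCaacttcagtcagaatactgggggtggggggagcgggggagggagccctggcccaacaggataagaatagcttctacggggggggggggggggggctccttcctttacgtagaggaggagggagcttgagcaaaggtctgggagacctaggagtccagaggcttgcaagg
Col15a1, chr4:47207762-47208011, plus strand: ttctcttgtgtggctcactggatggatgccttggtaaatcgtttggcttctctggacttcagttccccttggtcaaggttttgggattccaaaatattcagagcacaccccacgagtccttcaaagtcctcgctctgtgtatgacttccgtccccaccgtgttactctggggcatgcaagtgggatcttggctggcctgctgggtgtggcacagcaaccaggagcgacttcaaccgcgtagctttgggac
Col1a2 held 2 GC boxes, 205 and 188 bases before the start. GENCODE places the start of this gene further 5′, at base 4504814, so that the Col1a2 stretch lies inside the span of that annotation. Col5a3 held a CCAAT box at 122 bases and GC boxes at 63 and 41 bases before the start, and Col6a2 a GC box at 175 bases. No match was found in the stretches of Col6a1 and Col15a1. The stretches of Col1a2 and Col6a1 end 126 and 125 bases before the RefSeq start. The bases nearest that start, where TATA and CCAAT boxes usually lie, were therefore not searched in these genes. GENCODE places the start of Col6a1 further 5′, at base 76726168, directly next to the Col6a1 stretch. Among 32851 RefSeq windows of 250 bases, 32.7% held a GC box, 33.8% a CCAAT box and 12.4% a TATA box. In windows cut to the 123 bases of the Col1a2 stretch the shares were 13.3%, 16.6% and 6.1% in the same order of motifs. The stretch of Col4a2, the remaining gene of the 6, is not shown because its annotated 5′ end overlaps that of Col4a1 on the opposite strand of chromosome 8 by 22 bases.

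Libraries held 15434424 to 25355877 expected counts, RSEM's estimates of reads per gene. Levels are given as TMM-scaled CPM, counts per fixed library size, which correct for sequencing depth and composition but not for transcript length. Fast fiber markers summed to 138457 to 157303 CPM in AET_MET, 140178 to 157113 CPM in AET and 142920 to 162790 CPM in SED libraries, and none of the markers of muscle fibers, endothelium or connective tissue was at 0 in all libraries. SED replicate 2 stood apart for part of the collagens. It was the highest of the 3 SED libraries in 20 of the 36 tested genes and the highest of all 9 libraries in 10. In 10 it was above 1.5 times the mean of the other SED libraries. The shares of all tested genes in which this library stood so were not computed. Over the 10 fibroblast markers the median ratio of this library to the mean of the other SED libraries was 1.03, and over the 10 macrophage markers, which summed to 188 CPM here against 132 and 141 CPM in SED replicates 1 and 3, it was 1.52. Postn, a matrix protein gene chosen here after its values were seen, had 128 CPM in SED replicate 2, against 6.24 and 7.03 CPM in the other SED libraries. The part of macrophage RNA in the collagen levels of this library was not tested. AET_MET replicate 1 and SED replicate 1 held reads of epidermal genes. A list of 8 epidermal genes, set up after these data were seen, summed to 4241, 112 and 13 counts in the AET_MET libraries, 16, 13 and 20 counts in the AET libraries, and 3897, 6 and 9 counts in the SED libraries. Among the collagens, Col17a1, the transmembrane collagen of epidermal hemidesmosomes, followed these libraries, with 372, 9 and 2 counts in AET_MET, 3, 4 and 3 counts in AET, and 123, 1 and 6 counts in SED. It did not pass the filter. The other untested genes, Col2a1, Col6a4, Col9a2, Col9a3, Col10a1, Col25a1 and Col26a1, had at most 11 counts in any library.

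Taken over all classes together, collagen messages were lowest in the AET_MET muscles. The AET_MET group had the lowest mean of the 3 groups in 29 of the 36 tested genes. The share of all tested genes with their lowest mean in AET_MET was not computed. The AET group had the highest mean in 18 and the SED group in 16. Summed per kilobase of transcript, all collagens came to 118, 113 and 108 CPM per kilobase in AET_MET libraries, 166, 166 and 171 in AET libraries, and 143, 259.5 and 169.8 in SED libraries. Every AET_MET library lay below every AET and SED library, while AET and SED overlapped. Slow fiber markers summed to 89.1, 724 and 284 CPM in AET_MET, 408, 339 and 1280 CPM in AET, and 837, 1013 and 851 CPM in SED libraries. The AET_MET sums were below all SED sums and overlapped AET. All 8 slow fiber markers had estimates below 0 in AET_MET against SED, with a median log2 change of -1.26, and 0 were called by edgeR, DESeq2 or limma-voom, also with 0 at an unadjusted p under 0.05. The part of fiber type in the collagen levels was not tested. In bulk muscle, fewer cells of a type and less RNA per cell cannot be told apart.

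Against AET, the AET_MET group had 6 collagen genes called lower and 0 called higher by the edgeR quasi-likelihood test at a Benjamini-Hochberg adjusted p under 0.05. Of all 13944 tested genes 3.43% were called in this comparison, 1.77% lower and 1.66% higher. The 6 were Col15a1, Col4a2, Col6a1, Col5a3, Col6a2 and Col1a2, so each class had at least 1. DESeq2 called 9 and limma-voom 7, and 13 had an unadjusted p under 0.05. The estimate was below 0 in 33 of 36 collagen genes, against 49.9% of all tested genes, and the median log2 change was -0.50, against 0.00072 over all tested genes. In 18 collagen genes every AET_MET library was below every AET library, and in 0 every AET_MET library was above, where the shares over all genes were 13.2% and 14.7%. The calls depended on single libraries, while most estimates stayed below 0. Without AET_MET replicate 1 or without AET_MET replicate 3, 0 collagens were called, with 12 and 13 at an unadjusted p under 0.05 and 33 estimates below 0 in each fit. Without AET replicate 1 or AET replicate 3, 1 was called, without AET_MET replicate 2 there were 3, without AET replicate 2 there were 4, and without SED replicate 2, which is in neither group but changes the shared spread and the filter (37 collagens tested), there were 10. Without both libraries with epidermal reads 3 were called lower and 33 of 36 estimates were below 0. Scaled by library size alone, 4 collagens were called lower and 0 higher, while the calls over all genes split into 611 higher and 156 lower, against 231 higher and 247 lower with TMM scaling.

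Against SED, the AET_MET group had 4 collagen genes called lower and 0 higher, among 4.59% of all tested genes called, 2.42% lower and 2.17% higher. They were Col1a1, Col1a2, Col16a1 and Col6a1. DESeq2 called 8 and limma-voom 6, and 13 had an unadjusted p under 0.05. The estimate was below 0 in 30 of 36, against 49.5% of all genes, with a median log2 change of -0.25 against 0.0026 over all genes. Every AET_MET library was below every SED library in 11 collagen genes and above in 1, where both shares over all genes were 13.4%. Without AET_MET replicate 1 there were 2 calls, without AET_MET replicate 3 there was 1, without SED replicate 2 there were 3, and without both libraries with epidermal reads there were 4. Scaling by library size alone raised the median of all genes by 0.10 and split their calls into 684 higher and 176 lower, against 303 higher and 337 lower with TMM scaling. Collagens then had 1 call higher, Col7a1, and 3 lower, Col1a1, Col1a2 and Col16a1, with 24 of 36 estimates below 0.

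Training alone gave collagens no common direction. In AET against SED 3 genes were called higher, Col15a1, Col5a3 and Col6a5, and 1 lower, Col1a2. Of all tested genes 12.3% were called, 5.82% higher and 6.45% lower. Among these collagens, Col6a5 passed the filter on low counts through the AET libraries, where it was highest. DESeq2 called 8 and limma-voom 6, and 12 had an unadjusted p under 0.05. The estimate was below 0 in 16 of 36, against 48.6% of all genes, and the median log2 change was 0.058, against 0.011 over all genes. Groups did not overlap in 7 collagen genes higher and 5 lower in AET, where 16.4% of all genes were higher and 16.3% lower in this way. Only 1 collagen was called without AET replicate 1 or AET replicate 3, and 2 without SED replicate 3. Without SED replicate 1 there were 1 higher and 3 lower, without SED replicate 2 there were 5 higher and 1 lower, and without both libraries with epidermal reads 1 higher and 3 lower. With upper-quartile scaling 5 collagens were higher and 1 lower, and the calls over all genes split into 980 higher and 711 lower, against 812 higher and 900 lower with TMM scaling.

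**Figure D1:**
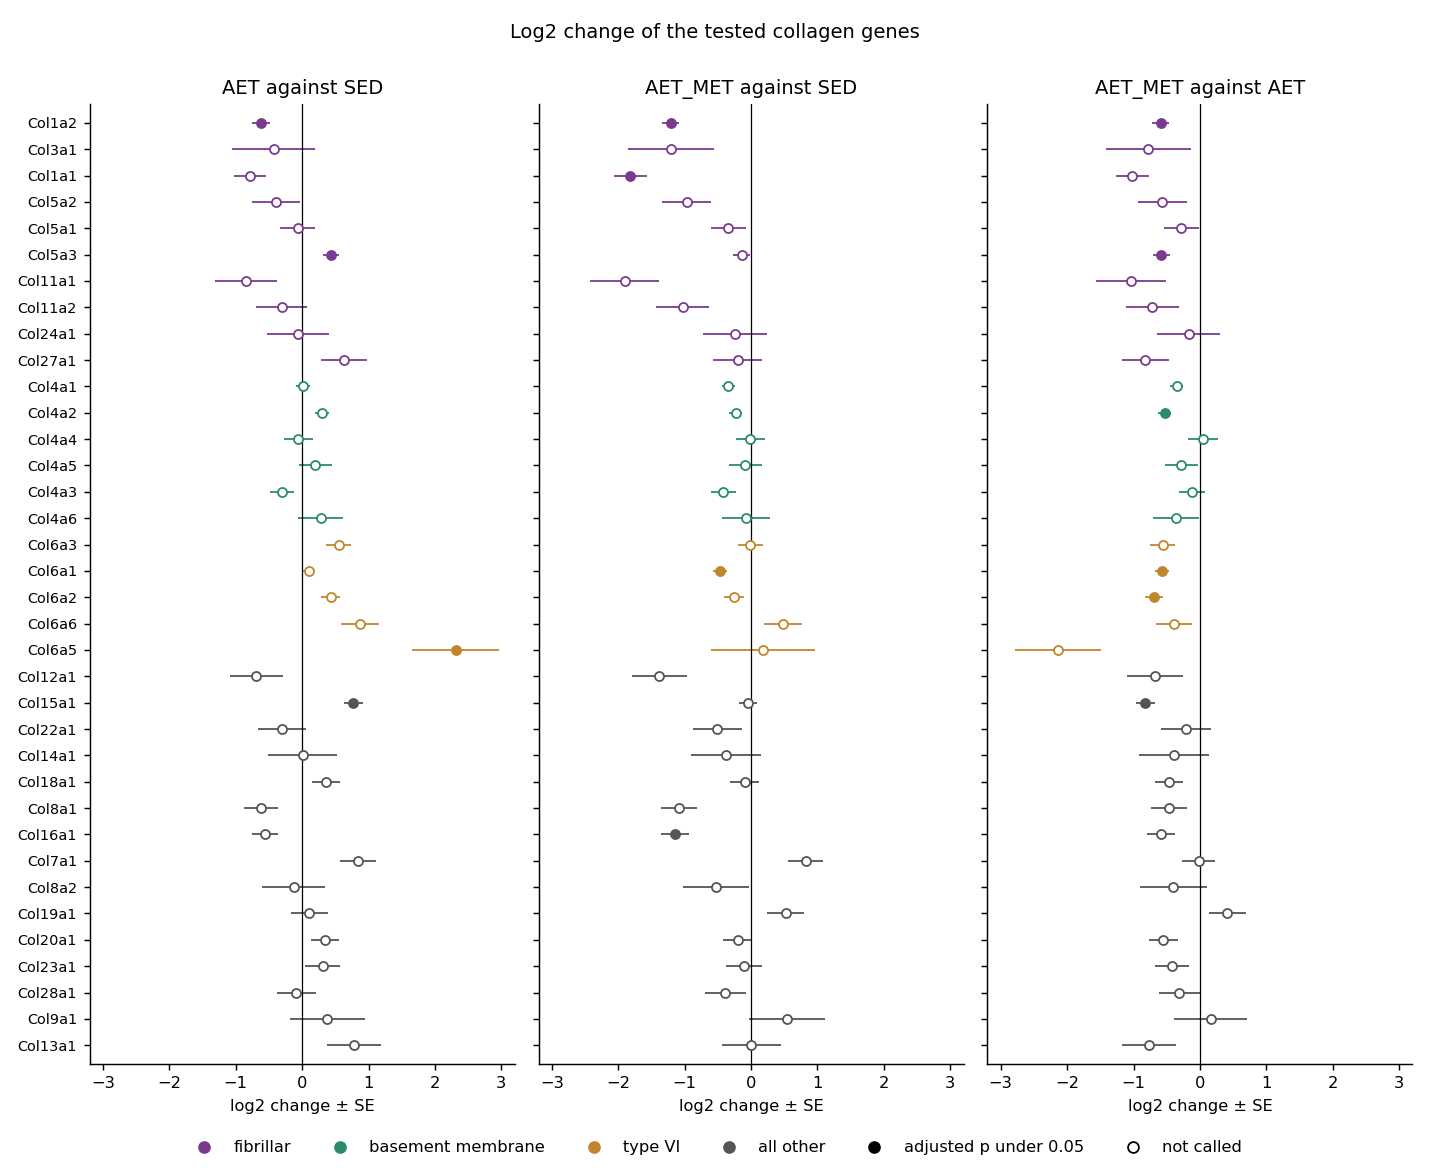
Log2 change ± SE of the 36 tested collagen genes in the 3 comparisons, coloured by class and ordered by mean CPM within a class; filled points have an adjusted p under 0.05. In AET_MET against AET 33 points lie left of 0, in AET_MET against SED 30, and in AET against SED 16.

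Classes differed in which group stood apart. Fibrillar collagens summed to 48.1, 47.7 and 47.7 CPM per kilobase in AET_MET libraries, 77.1, 78.1 and 77.1 in AET libraries, and 70.7, 168 and 91.8 in SED libraries. Basement membrane collagens summed to 28.7, 28.4 and 24.5 CPM per kilobase in AET_MET, 34.3, 34.1 and 40.0 in AET, and 31.3, 35.9 and 32.6 in SED libraries. Type VI collagens summed to 23.1, 22.9 and 25.3 CPM per kilobase in AET_MET, 39.1, 34.6 and 35.1 in AET, and 24.6, 35.5 and 26.9 in SED libraries. The AET_MET libraries were below all AET libraries in each of these 3 sums, and below all SED libraries in the fibrillar and basement membrane sums. For type VI, AET_MET overlapped SED. The remaining collagens, at 17.7, 13.8 and 10.8 CPM per kilobase in AET_MET, 16, 18.9 and 18.4 in AET, and 16.4, 20.1 and 18.5 in SED, overlapped in every pair of groups. This sum includes untested genes, among them Col17a1, which followed the epidermal reads. Col17a1 had 22.9 CPM in AET_MET replicate 1 and 5.81 CPM in SED replicate 1. Its mean per kilobase was 1.4 ± 2.34 CPM in AET_MET, 0.0251 ± 0.00312 in AET and 0.367 ± 0.584 in SED (SD, n = 3 each). The sum without Col17a1 was not computed, so the overlap is stated only for the sum that holds it. Among the 15 tested other genes, which leave out Col17a1, 13 estimates were below 0 and 2 above in AET_MET against AET (median log2 change -0.42). In AET_MET against SED 11 of these were below 0 and 4 above (median -0.20). As a share of the summed collagen level per kilobase, fibrillar genes made up 42.4% ± 1.6 in AET_MET, 46.2% ± 0.958 in AET and 56.1% ± 7.85 in SED (SD, n = 3 each), with no overlap between groups. The type VI share was 21.1% ± 1.97 in AET_MET, 21.6% ± 1.59 in AET and 15.6% ± 1.77 in SED (SD, n = 3 each), and both trained groups lay above SED in every library. The shares add to a fixed total, so a higher share of one class lowers the rest.

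**Figure D2:**
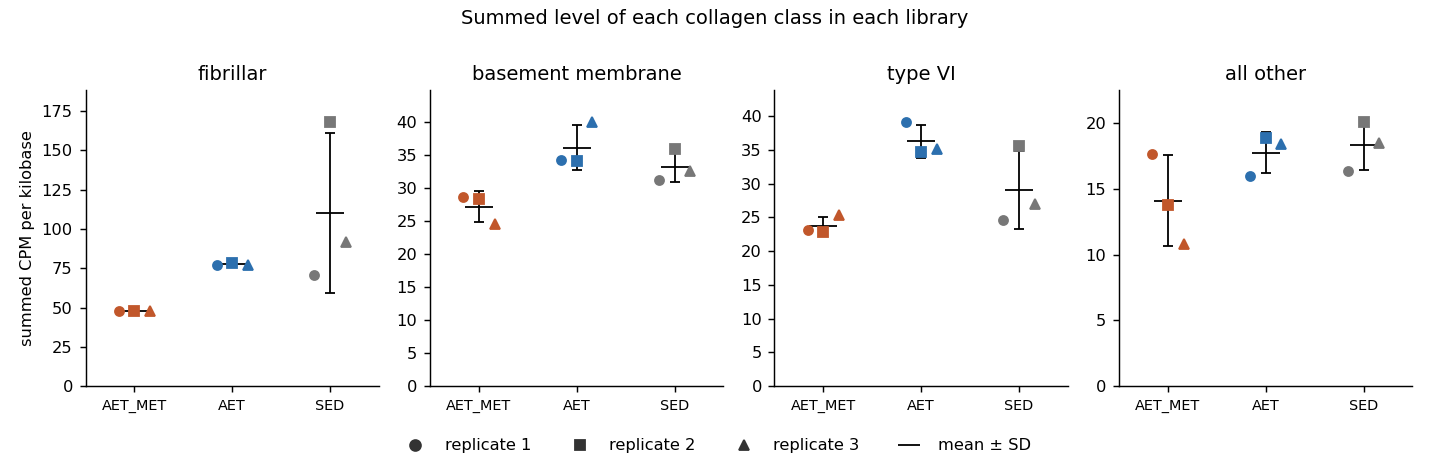
Summed CPM per kilobase of transcript for each collagen class in each of the 9 libraries, with the mean ± SD (n = 3). The fibrillar sum lies at 47.7 to 48.1 in AET_MET, 77.1 to 78.1 in AET and 70.7 to 168 in SED, and the AET_MET points lie below the AET points in every class but the last. The last class includes the untested gene Col17a1, which followed the epidermal reads of AET_MET replicate 1 and SED replicate 1.

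Fibrillar collagens were the most abundant class and had the largest class decrease in AET_MET against SED. Their median log2 change was -1.0 in AET_MET against SED, -0.65 in AET_MET against AET and -0.35 in AET against SED. All 10 tested genes had estimates below 0 in both AET_MET comparisons, and 8 of 10 in AET against SED. Calls were fewer, with 2 lower in AET_MET against SED, 2 lower in AET_MET against AET, and 1 higher and 1 lower in AET against SED. Over all tested genes, 2.42% were called lower in AET_MET against SED and 1.77% lower in AET_MET against AET. In AET against SED 5.82% of all tested genes were called higher and 6.45% lower. Without SED replicate 2 the median was -0.49 in AET_MET against SED and -0.12 in AET against SED. The 10 tendon cell markers summed to 211, 235 and 98.9 CPM in AET_MET, 146, 334 and 230.2 CPM in AET, and 419.8, 343 and 577 CPM in SED libraries, with none at 0 throughout. Of these markers edgeR called 1 lower in each comparison with SED, and in AET_MET against SED DESeq2 called 3 and limma-voom 2. The edgeR shares called lower over all tested genes were 6.45% in AET against SED and 2.42% in AET_MET against SED. In AET_MET against AET 0 were called by edgeR, DESeq2 or limma-voom, with 1 at an unadjusted p under 0.05. Estimates were below 0 in all 10 in AET_MET against SED (median -1.27) and in 9 in AET against SED (median -0.99). In AET_MET against AET 8 were below 0 and 2 above (median -0.37). Kera and Fmod also stand among the fibril-binding proteoglycans. The tendon marker sums of both trained groups lay below those of SED, AET_MET and AET overlapped, and SED replicate 2 had the lowest sum of the SED libraries. Fibroblast marker sums overlapped between all groups, at 1015 to 1156 CPM in AET_MET, 941 to 1267 CPM in AET and 1051 to 1360 CPM in SED, but most of each sum was a single gene, Gsn. Of the 10 fibroblast markers, Cd248 and Thy1 were called lower in AET_MET against AET, by -0.73 ± 0.15 and -0.85 ± 0.19 (edgeR adjusted p = 0.0246 and 0.0327), and Cd248 was higher in AET against SED, by 0.96 ± 0.15 (adjusted p = 0.00173). In AET_MET against SED 0 were called by edgeR, DESeq2 or limma-voom, with 1 at an unadjusted p under 0.05. Over the 10 fibroblast markers, 7 estimates were below 0 and 3 above in AET_MET against AET, with a median of -0.10. In AET against SED 7 were above 0 and 3 below, with a median of 0.13. Of all tested genes, 1.77% were called lower in AET_MET against AET and 5.82% higher in AET against SED. The part of tendon or fibroblast RNA in the collagen differences was not tested.

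Type I collagen, the main fibril protein, is a trimer of 2 chains from Col1a1 and 1 from Col1a2. Col1a2 had 94.3, 101 and 88.7 CPM in AET_MET, 138, 149.7 and 138 CPM in AET, and 165, 246 and 245 CPM in SED libraries. All AET_MET libraries were below all AET libraries, and these below all SED libraries. The log2 change of Col1a2 was -1.21 ± 0.13 (SE) in AET_MET against SED (edgeR adjusted p = 0.00155), a call kept when any of the 6 libraries compared was left out. It was -0.62 ± 0.13 in AET against SED (adjusted p = 0.0114), a call lost without AET replicate 1 or AET replicate 3, where the adjusted p reached 0.0589. In AET_MET against AET it was -0.59 ± 0.13 (adjusted p = 0.0369), a call that ended with library sizes alone and when any of the 6 libraries was left out, with adjusted p from 0.0762 to 0.157 over these, while the estimates stayed between -0.65 and -0.55. Col1a2 was thus the collagen gene called lower in all 3 comparisons.

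Col1a1 had 33.6, 30.3 and 28.5 CPM in AET_MET, 54.7, 65.4 and 67.3 CPM in AET, and 69.3, 145 and 110.3 CPM in SED libraries. Again the 3 groups did not overlap, and the SED libraries differed most among themselves. Col1a1 was lower in AET_MET than in SED by a log2 change of -1.82 ± 0.25 (edgeR adjusted p = 0.0125). The call was lost without AET_MET replicate 1 or AET_MET replicate 3, where the adjusted p reached 0.0755, and in a fit of only the 6 libraries compared, while leave-out estimates ran from -2.06 to -1.54. The changes of -1.02 ± 0.25 in AET_MET against AET (adjusted p = 0.0717) and -0.79 ± 0.24 in AET against SED (adjusted p = 0.0795) missed the threshold.

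Type III collagen, a homotrimer of Col3a1 found in thin reticular fibrils, depended on a single library. Col3a1 had 89.8, 79.7 and 100.1 CPM in AET_MET, 171, 142 and 151 CPM in AET, and 95.3, 438 and 88.7 CPM in SED libraries. AET_MET lay below AET in every library, whereas SED replicate 2 was far above all others and SED replicates 1 and 3 were near the AET_MET level. No comparison was called, with log2 changes of -1.21 ± 0.65 in AET_MET against SED, -0.78 ± 0.64 in AET_MET against AET and -0.43 ± 0.63 in AET against SED (edgeR adjusted p = 0.356, 0.54 and 0.711). Without SED replicate 2, Col3a1 was higher in AET than in SED, with a log2 change of 0.75 (adjusted p = 0.00445, against up to 0.808 with other libraries left out), and its change in AET_MET against SED was -0.034.

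Type V collagen joins type I fibrils and limits their diameter. Its Col5a3 chain had 13.0, 16.6 and 14.5 CPM in AET_MET, 20.6, 21.4 and 24.1 CPM in AET, and 14.9, 19.2 and 14.4 CPM in SED libraries. The AET libraries were above all libraries of the other groups. Col5a3 was lower in AET_MET than in AET, with a log2 change of -0.58 ± 0.13 (edgeR adjusted p = 0.0294), and higher in AET than in SED, with 0.44 ± 0.12 (adjusted p = 0.0354). Each call held in 1 of the 6 fits that left out a compared library, without AET_MET replicate 2 and without SED replicate 2, and was lost in the other 5, where the adjusted p reached 0.126 and 0.136. Both were also lost with library sizes alone. In AET_MET against SED the change was -0.14 ± 0.13 (adjusted p = 0.591). Both other type V chains resembled Col3a1 in SED replicate 2. Col5a2 had 61.3 CPM there, against 24.9 and 24.7 CPM in SED replicates 1 and 3, and Col5a1 had 39.0 CPM, against 20.6 and 18.5 CPM. Neither was called in any comparison. The low fibrillar genes Col11a1, Col11a2, Col24a1 and Col27a1 ran between 0.44 and 11.3 CPM and had no call. Among these, Col11a1, a chain of the cartilage and tendon type XI fibril, had the lowest estimate of any collagen in AET_MET against SED, -1.90 ± 0.52 (edgeR adjusted p = 0.0925).

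**Figure D3:**
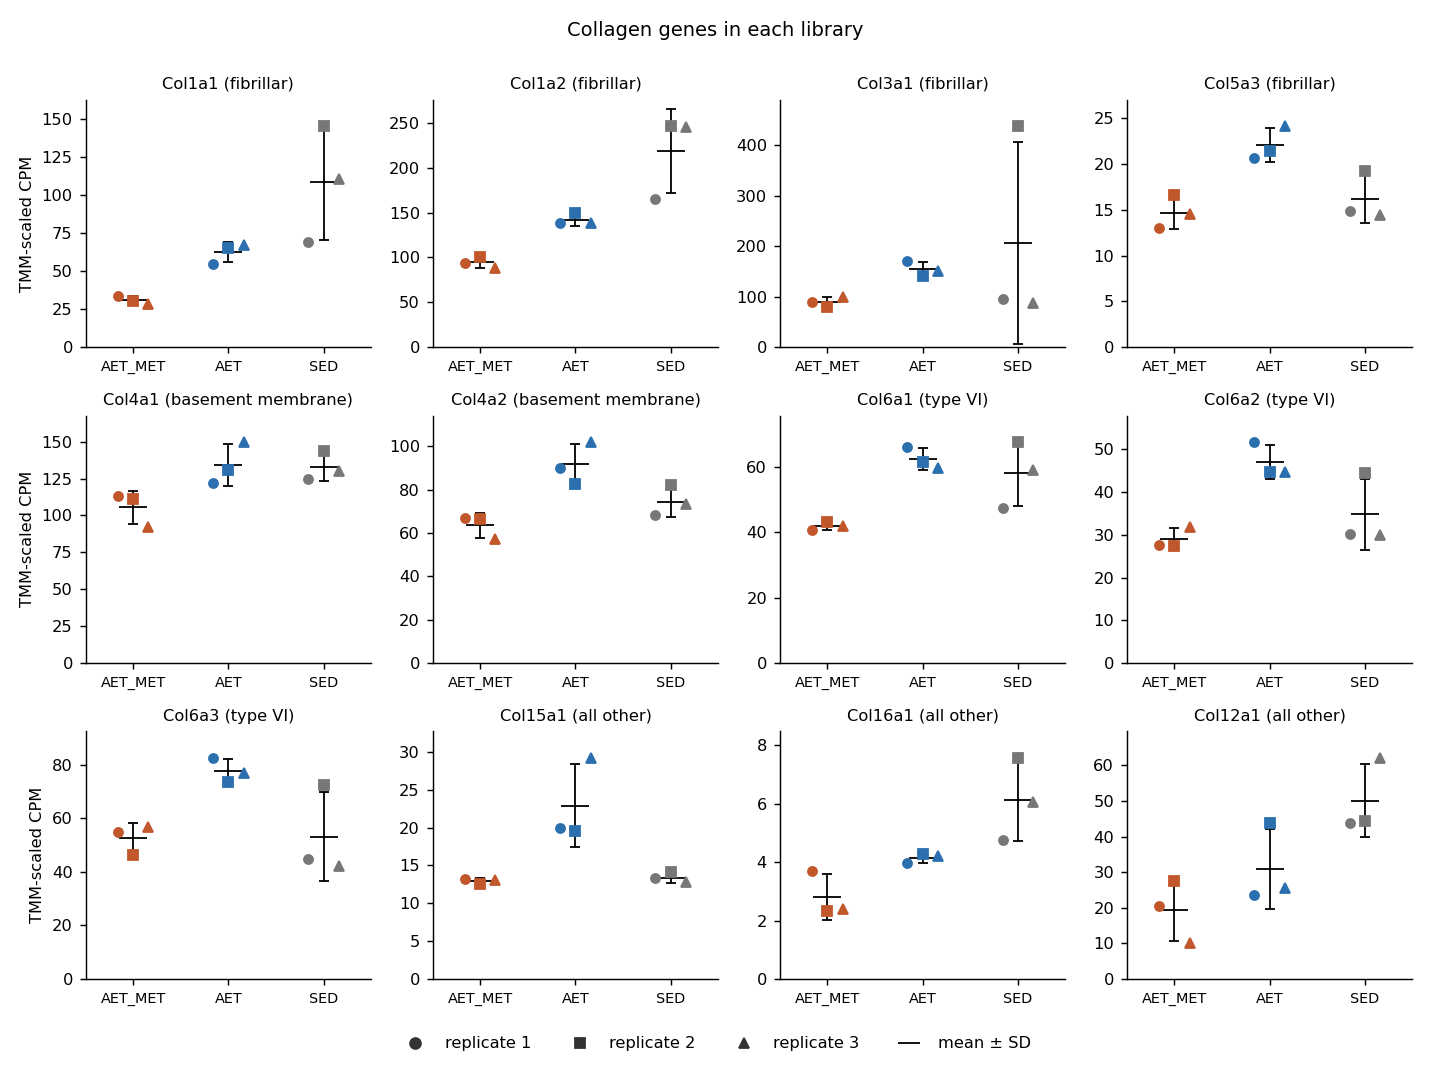
TMM-scaled CPM of 12 collagen genes in each of the 9 libraries, with the mean ± SD (n = 3); each panel starts at 0. Col1a1, Col1a2 and Col16a1 are ordered AET_MET below AET below SED without overlap, Col5a3, Col4a2, Col6a2, Col6a3 and Col15a1 are highest in the 3 AET libraries, and Col3a1 has its highest point, 438 CPM, in SED replicate 2.

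Among basement membrane collagens a single gene, Col4a2, was called, lower in AET_MET than in AET. Of the 6 type IV genes, 0 were called in AET against SED by edgeR, DESeq2 or limma-voom, with 1 at an unadjusted p under 0.05, and the median log2 change was 0.10. In AET_MET against SED 0 were called by edgeR or limma-voom and 1 by DESeq2, with 3 at an unadjusted p under 0.05, all 6 estimates below 0 and a median of -0.16. In AET_MET against AET 1 was called lower, where 1.77% of all tested genes were, 5 of 6 estimates were below 0 and the median was -0.32.

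Col4a1 and Col4a2 encode the chains of the common type IV trimer and lie head to head on chromosome 8. Col4a2 had 67.2, 66.3 and 57.1 CPM in AET_MET, 90.2, 82.8 and 102 CPM in AET, and 68.3, 82.1 and 73.3 CPM in SED libraries. Every AET library was above every library of the other groups. The log2 change was -0.53 ± 0.10 in AET_MET against AET (edgeR adjusted p = 0.0187), a call lost without AET_MET replicate 1, AET_MET replicate 3, AET replicate 1 or AET replicate 3, where the adjusted p reached 0.0999. It was 0.30 ± 0.10 in AET against SED (adjusted p = 0.0651) and -0.23 ± 0.10 in AET_MET against SED (adjusted p = 0.203). Col4a1 had 113, 111 and 92.4 CPM in AET_MET, 122, 131 and 149.7 CPM in AET, and 125, 144 and 129.8 CPM in SED libraries. All AET_MET libraries were below those of both other groups, while AET and SED overlapped. Its changes of -0.35 ± 0.10 in AET_MET against AET and -0.34 ± 0.10 in AET_MET against SED missed the threshold (edgeR adjusted p = 0.0699 and 0.0768), and in AET against SED it was 0.013 ± 0.10 (adjusted p = 0.948).

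The minor chains Col4a3, Col4a4 and Col4a5, which build the network of specialised basement membranes such as that of the kidney glomerulus, and Col4a6 were far lower. Col4a4 had 3.58, 4.54 and 4.76 CPM in AET_MET, 4.92, 3.79 and 3.85 CPM in AET, and 5.10, 2.86 and 5.13 CPM in SED libraries, and all groups overlapped. Its log2 changes lay between -0.061 and 0.047. Col4a3, Col4a5 and Col4a6 ran between 0.509 and 5.73 CPM and none was called. Endothelial markers, from cells that lie on this membrane, summed to 340.2, 371 and 298 CPM in AET_MET, 437, 378 and 415 CPM in AET, and 346, 376 and 407 CPM in SED libraries. The AET_MET sums were below all AET sums and overlapped SED. Of the 12 markers, none at 0 throughout, 1 was called lower in AET_MET against AET, the receptor gene Kdr, where 3.43% of all tested genes were called. Kdr was also called higher in AET against SED, by 1.03 ± 0.15 (edgeR adjusted p = 0.00206). Another marker, Cldn5, was called lower in AET and in AET_MET than in SED, by -1.03 ± 0.13 and -0.77 ± 0.13 (adjusted p = 0.000545 and 0.00796). Its estimate in AET_MET against AET was 0.26 ± 0.14 (adjusted p = 0.284). The part of endothelial RNA in the type IV difference was not tested.

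Type VI chains had their highest levels in AET for Col6a2, Col6a3 and Col6a5, while Col6a1 overlapped between AET and SED. All 5 tested genes had estimates above 0 in AET against SED, with a median log2 change of 0.55 and 1 call. That call was Col6a5, which passed the filter on low counts through the AET libraries, where it was highest. All 5 had estimates below 0 in AET_MET against AET, with a median of -0.57 and 2 calls. In AET_MET against SED 2 were above and 3 below 0, with 1 call and a median of -0.012. The shares called over all tested genes were 12.3% in AET against SED, 3.43% in AET_MET against AET and 4.59% in AET_MET against SED. Without SED replicate 2 the median was 0.75 in AET against SED and 0.27 in AET_MET against SED. Schwann cell markers had medians of 1.11 in AET against SED and -1.04 in AET_MET against AET. Of 10 mural cell markers (smooth muscle and pericyte), edgeR called only Acta2 in AET against SED, where 12.3% of all tested genes were called. Acta2 was higher by 1.10 ± 0.27 (edgeR adjusted p = 0.0416). DESeq2 called 4 of the 10 and limma-voom 3. Estimates were above 0 in 6 and below 0 in 4, with a median of 0.26, and the mural marker sums overlapped between all groups. The Acta2 estimate in AET_MET against AET was -0.85 ± 0.27 (adjusted p = 0.127). The part of Schwann cell, mural cell or fibroblast RNA in the type VI differences was not tested.

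Col6a1, Col6a2 and Col6a3 encode the chains of the type VI trimer, and Col6a1 and Col6a2 are neighbours on chromosome 10. Col6a1 had 40.8, 43.3 and 41.9 CPM in AET_MET, 66.1, 61.5 and 59.8 CPM in AET, and 47.6, 67.6 and 59.2 CPM in SED libraries. AET_MET was below both other groups in every library, and AET and SED overlapped. Its log2 change was -0.57 ± 0.11 in AET_MET against AET (edgeR adjusted p = 0.0187) and -0.47 ± 0.11 in AET_MET against SED (adjusted p = 0.0272), and 0.10 ± 0.10 in AET against SED (adjusted p = 0.555). The first call held only without AET replicate 2 among the 6 fits that left out a compared library, and the adjusted p otherwise reached 0.0988. The second was lost without AET_MET replicate 1, AET_MET replicate 3, SED replicate 2 or SED replicate 3, where the adjusted p reached 0.121, and with library sizes alone.

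Col6a2 had 27.7, 27.5 and 31.9 CPM in AET_MET, 51.7, 44.7 and 44.7 CPM in AET, and 30.2, 44.4 and 29.9 CPM in SED libraries. AET was above both other groups, with SED replicate 2 just below the lowest AET library. The log2 change was -0.69 ± 0.14 in AET_MET against AET (edgeR adjusted p = 0.0323), lost when any of the 6 libraries was left out (adjusted p 0.0609 to 0.108) and with a replicate block. It was 0.43 ± 0.14 in AET against SED (adjusted p = 0.0771) and -0.26 ± 0.15 in AET_MET against SED (adjusted p = 0.338). Col6a3, the largest of these chains, had 55.1, 46.4 and 56.7 CPM in AET_MET, 82.6, 73.5 and 77.1 CPM in AET, and 45.0, 72.4 and 42.1 CPM in SED libraries. The AET libraries were again the highest, without a call, at 0.55 ± 0.19 in AET against SED (adjusted p = 0.10), -0.56 ± 0.19 in AET_MET against AET (adjusted p = 0.139) and -0.012 ± 0.19 in AET_MET against SED (adjusted p = 0.981). Without SED replicate 2, Col6a2 and Col6a3 were called higher in AET than in SED (adjusted p = 0.00497 and 0.00162), whereas the adjusted p reached 0.255 and 0.279 with other libraries left out.

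The minor type VI chains were low. Col6a5 had 0.247, 0.463 and 0.18 CPM in AET_MET, 1.05, 0.468 and 2.47 CPM in AET, and 0.0945, 0.396 and 0.293 CPM in SED libraries, where 1 count is worth 0.039 to 0.0617 CPM. AET replicate 3 was the highest and AET replicate 2 exceeded the highest AET_MET and SED libraries only slightly. In a fit of only the AET_MET and SED libraries, 35 collagens were tested and Col6a5 was not among them. The gene needed the AET libraries, where it was highest, to pass the filter on low counts. Its call and the sign of its estimates against AET are therefore not independent of that filter. Col6a5 was higher in AET than in SED, with a log2 change of 2.31 ± 0.65 (edgeR adjusted p = 0.0396), a call that held without AET replicate 2 and was lost in the other 5 fits that left out a compared library, AET replicates 1 and 3 and each SED library, with adjusted p up to 0.188. It was also lost with limma-voom, with a replicate block and in a fit of only the 6 libraries compared. In AET_MET against AET the change was -2.14 ± 0.65 (adjusted p = 0.0881). Col6a6 ran between 4.89 and 13.2 CPM and had no call.

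Among the 15 other tested collagens, Col15a1 had the firmest response to training. Type XV is a multiplexin, a basement membrane proteoglycan at the outer face of fibers and capillaries. Col15a1 had 13.2, 12.6 and 13.1 CPM in AET_MET, 20, 19.5 and 29.2 CPM in AET, and 13.3, 14.1 and 12.8 CPM in SED libraries. The AET libraries were above all others, and AET_MET overlapped SED. The log2 change was 0.77 ± 0.14 in AET against SED (edgeR adjusted p = 0.00408), kept when any of the 6 libraries was left out, with estimates from 0.56 to 0.88. It was -0.82 ± 0.14 in AET_MET against AET (adjusted p = 0.0141), lost without AET_MET replicate 1 or AET_MET replicate 3, where the adjusted p reached 0.0785, and -0.049 ± 0.14 in AET_MET against SED (adjusted p = 0.885). Schwann cell markers, which summed to 33.5, 73.9 and 33.8 CPM in AET_MET, 84.7, 89.9 and 146 CPM in AET, and 45.6, 51.7 and 43.2 CPM in SED libraries, were likewise highest in the 3 AET libraries. Of these 10 markers, none at 0 throughout, 3 were called higher in AET against SED and 1 lower in AET_MET against AET. Over all tested genes the shares called in these directions were 5.82% and 1.77%. The part of Schwann cell RNA in the Col15a1 difference was not tested. The related multiplexin Col18a1 ran between 5.93 and 12.6 CPM, with AET_MET below AET in every library and no call.

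Fibril-associated collagens sit on the surface of fibrils. Col16a1, a member of this family, had 3.70, 2.32 and 2.38 CPM in AET_MET, 3.96, 4.29 and 4.22 CPM in AET, and 4.77, 7.57 and 6.06 CPM in SED libraries. The groups did not overlap, in the order of the type I chains. It was lower in AET_MET than in SED by a log2 change of -1.15 ± 0.21 (edgeR adjusted p = 0.0105), lost without AET_MET replicate 3 (adjusted p = 0.0719, with 0.00948 the lowest in the other 5 fits). The changes of -0.59 ± 0.21 in AET_MET against AET and -0.56 ± 0.20 in AET against SED missed the threshold (adjusted p = 0.127 and 0.082). Col12a1, a fibril-associated collagen of tendon and fascia, had the highest mean CPM of the others, while per kilobase it had 2.91 CPM and Col15a1 had 3.18. Col12a1 had 20.6, 27.4 and 10.1 CPM in AET_MET, 23.5, 43.9 and 25.5 CPM in AET, and 43.9, 44.4 and 62.1 CPM in SED libraries. SED was the highest group, within rounding of AET replicate 2, and the libraries of both trained groups spread widely. Its changes were -1.38 ± 0.42 in AET_MET against SED, -0.68 ± 0.42 in AET_MET against AET and -0.69 ± 0.40 in AET against SED, and none was called (edgeR adjusted p = 0.132, 0.397 and 0.315).

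Col22a1, a collagen of the muscle-tendon junction, had 10.6, 12.4 and 7.81 CPM in AET_MET, 6.87, 16 and 12.6 CPM in AET, and 12.7, 10.8 and 20.4 CPM in SED libraries. All 3 groups overlapped and no change was called. Col14a1, also fibril-associated, had 20.7 CPM in SED replicate 2, against 6.14 and 6.25 CPM in SED replicates 1 and 3. Col8a1, a short-chain collagen of vessel walls, had estimates of -1.09 ± 0.27 in AET_MET against SED (edgeR adjusted p = 0.0544) and -0.62 ± 0.26 in AET against SED (adjusted p = 0.151), with all 3 groups apart from each other. Col7a1, the anchoring fibril collagen of skin, was the tested collagen whose AET_MET libraries all lay above SED, with 0.82 ± 0.27 (adjusted p = 0.102). Its estimate was 0.84 ± 0.27 in AET against SED (adjusted p = 0.0554), where libraries overlapped, and -0.018 ± 0.25 in AET_MET against AET (adjusted p = 0.98). Col7a1 had 3.95, 2.69 and 3.05 CPM in AET_MET, 3.39, 2.07 and 4.30 CPM in AET, and 1.84, 1.5 and 2.10 CPM in SED. The highest AET_MET value was in replicate 1, a library with epidermal reads, and the part of these reads was not tested. The remaining genes, Col8a2, Col9a1, Col13a1, Col19a1, Col20a1, Col23a1 and Col28a1, ran between 0.269 and 4.33 CPM with no call in any comparison.

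Levels were compared between genes per kilobase of transcript. Averaged over the 9 libraries, Col1a2 had 28.4 CPM per kilobase and Col3a1 27.1, followed by Col4a1 with 18.8, Col6a1 with 13.2, Col4a2 with 11.9, Col1a1 with 11.3, Col6a2 with 9.36 and Col6a3 with 6.06. Col1a2 and Col3a1, like Col6a1, Col4a2 and Col1a1, had overlapping ranges over the libraries. Within trimers the balance of chains also varied by group. The Col1a2 to Col1a1 ratio of CPM per kilobase was 3.11, 3.68 and 3.45 in AET_MET, 2.81, 2.54 and 2.27 in AET, and 2.65, 1.88 and 2.46 in SED libraries. Every AET_MET library exceeded the other groups. The Col4a2 to Col4a1 ratio was 0.609, 0.612 and 0.633 in AET_MET, 0.755, 0.648 and 0.701 in AET, and 0.559, 0.583 and 0.579 in SED libraries, and the groups did not overlap. The Col6a3 to Col6a1 ratio was 0.548, 0.435 and 0.55 in AET_MET, 0.507, 0.485 and 0.523 in AET, and 0.383, 0.434 and 0.289 in SED libraries. Both trained groups were above SED, AET_MET replicate 2 only narrowly. The Col6a2 to Col6a1 ratio was 0.718 ± 0.066 in AET_MET, 0.781 ± 0.0295 in AET and 0.622 ± 0.0847 in SED (SD, n = 3 each), with AET above SED in every library and AET_MET overlapping both. The ratio of Col3a1 to Col5a2, its neighbour on chromosome 1, overlapped between all groups, at 5.33 to 6.25 in AET_MET, 5.37 to 7.87 in AET and 4.28 to 8.5 in SED libraries.

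**Figure D4:**
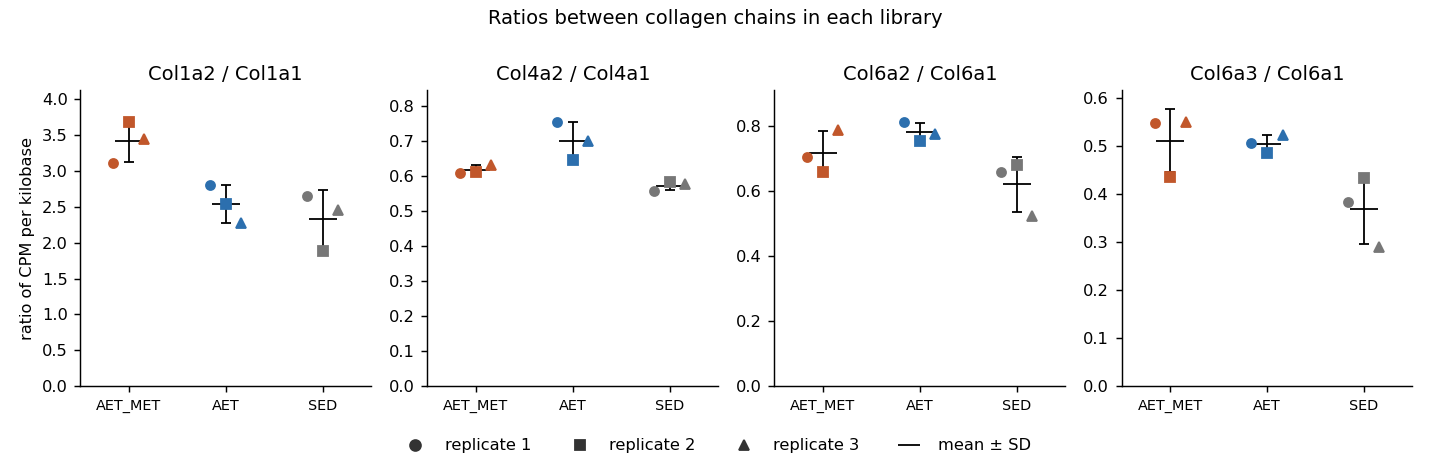
Ratio of CPM per kilobase between chains of the same collagen type in each of the 9 libraries, with the mean ± SD (n = 3); each axis starts at 0. The Col1a2 to Col1a1 ratio is highest in AET_MET, at 3.11 to 3.68, and the Col4a2 to Col4a1 ratio is highest in AET, at 0.648 to 0.755.

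Genes that fold, process, bind and degrade collagen were read against the share of all tested genes called, 12.3% for AET against SED, 4.59% for AET_MET against SED and 3.43% for AET_MET against AET. With 9 to 18 tested genes a list, nothing about a list is read from 1 or 2 calls. Of 18 tested genes for chain folding and modification, 0 were called in AET_MET against SED by edgeR, DESeq2 or limma-voom (5 at an unadjusted p under 0.05), and 0 in AET against SED by edgeR, with 1 by DESeq2, 1 by limma-voom and 3 at an unadjusted p under 0.05. Only Serpinh1, the collagen chaperone HSP47, was called in AET_MET against AET. Serpinh1 had 16.8, 18.4 and 20.9 CPM in AET_MET, 30.9, 42.1 and 29.4 CPM in AET, and 17.8, 28.1 and 19.4 CPM in SED libraries. All AET libraries were the highest, and the change was -0.87 ± 0.20 in AET_MET against AET (edgeR adjusted p = 0.0488) and 0.65 ± 0.19 in AET against SED (adjusted p = 0.0599).

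Of 12 tested genes for procollagen processing and crosslinking, 1 was higher and 1 lower in AET against SED, 1 was lower in AET_MET against SED and 1 lower in AET_MET against AET. Lox, the enzyme that crosslinks collagen fibrils, had 15.8, 25.3 and 16.2 CPM in AET_MET, 14.5, 17.3 and 12.4 CPM in AET, and 40.7, 49.4 and 51.4 CPM in SED libraries. Both trained groups were below every SED library, with log2 changes of -1.30 ± 0.20 in AET_MET against SED (edgeR adjusted p = 0.0105) and -1.68 ± 0.20 in AET against SED (adjusted p = 0.00138). Pcolce, which enhances removal of the C-propeptide, had 12.8, 13.4 and 13.1 CPM in AET_MET, 18.8, 20.9 and 15 CPM in AET, and 13.2, 14.1 and 13.8 CPM in SED libraries. It was highest in the AET libraries, with changes of -0.48 ± 0.11 in AET_MET against AET and 0.41 ± 0.11 in AET against SED (adjusted p = 0.0399 and 0.033), of which limma-voom did not call the first.

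Basement membrane partners, the laminins, nidogens and proteoglycans that bind type IV collagen, had 10 tested genes. In AET_MET against SED 1 was higher and 1 lower, in AET_MET against AET 2 were lower, and in AET against SED 3 were higher and 1 lower. Lama4, a laminin chain of vessels and fibers, had 30.8, 30.6 and 24.9 CPM in AET_MET, 40.2, 39.5 and 42.5 CPM in AET, and 29.3, 27.1 and 27.0 CPM in SED libraries. Like Col4a2 and Col15a1 it was highest in the 3 AET libraries, with changes of -0.50 ± 0.09 in AET_MET against AET and 0.55 ± 0.09 in AET against SED (edgeR adjusted p = 0.0168 and 0.0023). Nid1, which bridges laminin and type IV collagen, was lower than in SED in both AET_MET and AET, by -0.39 ± 0.07 and -0.25 ± 0.07 (edgeR adjusted p = 0.0105 and 0.0337). Agrn, the synaptic proteoglycan agrin, was higher in both AET_MET and AET than in SED, by 0.55 ± 0.14 and 0.65 ± 0.14 (adjusted p = 0.0423 and 0.0093). Limma-voom called only 1 partner gene in AET_MET against SED, so it did not call both Nid1 and Agrn there.

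Among 11 collagen receptors, 2 were higher in AET against SED, the collagen-activated kinase Ddr2, with 0.46 ± 0.11 (edgeR adjusted p = 0.0155), and the type VI receptor proteoglycan Cspg4, with 0.65 ± 0.11 (adjusted p = 0.00265). In AET_MET against AET 0 were called by edgeR or limma-voom and 1 by DESeq2, with 7 at an unadjusted p under 0.05, and in AET_MET against SED 0 were called by any of these tools, with 3. Among 10 fibril-binding small proteoglycans, Prelp was lower in AET_MET than in SED, by -0.61 ± 0.13 (edgeR adjusted p = 0.0186), and Dcn, the decorin gene, and Omd were lower in AET than in SED, by -0.47 ± 0.14 and -0.94 ± 0.28 (adjusted p = 0.0415 and 0.0475). Limma-voom called neither, and the Dcn libraries of AET and SED overlapped. Of 9 tested genes for collagen degradation, the gelatinase gene Mmp2 was lower in AET_MET than in SED, by -0.68 ± 0.15 (edgeR adjusted p = 0.0356), and the inhibitor gene Timp4 was higher in AET_MET than in SED and than in AET, by 0.49 ± 0.10 and 0.46 ± 0.10 (adjusted p = 0.0217 and 0.0336). In AET against SED, Mmp9 was higher, by 0.86 ± 0.23 (adjusted p = 0.0272). Of 14 tested TGF-beta genes, Tgfb2, a ligand that raises collagen synthesis, was higher than in SED in both AET_MET and AET, by 0.54 ± 0.13 and 0.51 ± 0.13 (edgeR adjusted p = 0.0378 and 0.0234), of which limma-voom did not call the first, while the receptor genes Tgfbr1 and Tgfbr3 were lower in AET than in SED, by -0.43 ± 0.10 and -0.75 ± 0.12 (adjusted p = 0.0141 and 0.00224).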

How the data were processed

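RNA was sequenced from 9 gastrocnemius libraries. The authors deposited expected counts (RSEM estimates, 1 column per library). Per the submitters' processing notes, which give no roles, the tools were STAR 2.5.3a, RSEM 1.3.0 and edgeR 3.34.0 and the build was GRCm38. No source used here gives the annotation release or the strand setting, so the overlapping ends of Col4a1 and Col4a2 cannot be told apart by strand. Between 4.85% and 5.53% of values per library were not whole, and all were rounded. GENCODE M21 gave a symbol to 52135 of 55416 identifiers, and CPM per kilobase used the transcript with the longest coding sequence. Lengths, symbols and classes come from this annotation and from hand-written lists.

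All 13944 genes that passed filterByExpr were fitted together with edgeR 4.0.16 in R 4.3.3 (robust quasi-likelihood, TMM scaling, 1 mean per group, 6 residual degrees of freedom), with Benjamini-Hochberg adjustment over all of them. The procedure was tested on simulated data. limma 3.58.1 (voom) and DESeq2 1.42.0 were alternatives, besides other scalings and filters, only the compared libraries, a replicate block, and leaving out each library. A fit without AET_MET replicate 1 and SED replicate 1, and the epidermal list, were added after the data were seen. Libraries of 1 group differed by more than sampling noise (chi-square over its degrees of freedom, 15.7 or more), and none was merged. Members and lists were chosen with earlier results of these data known. Genes named with values in every library were those called in any comparison and the 3 tested members of highest mean CPM, not corrected for length, in each class; others named with values, Col7a1 among them, were chosen after their values were seen. In each pathway list at most the 3 genes of smallest p per comparison were named. Every p from a fit is from edgeR unless another tool is named.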

Additional observations from a re-analysis of the deposited data

How the results depend on the processing

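Leaving out each of the 9 libraries in turn gave 1 to 6 collagen calls in AET against SED, 1 to 4 in AET_MET against SED and 0 to 10 in AET_MET against AET, and 934 to 1509, 141 to 655 and 23 to 461 calls over all genes in the same order of comparisons. The class medians of log2 change then ran, for AET against SED, from -0.45 to -0.12 (fibrillar), 0.03 to 0.15 (basement membrane), 0.40 to 0.75 (type VI) and 0.02 to 0.17 (others); for AET_MET against SED, from -1.09 to -0.49, -0.23 to -0.16, -0.24 to 0.27 and -0.32 to -0.08; and for AET_MET against AET, from -0.70 to -0.58, -0.37 to -0.20, -0.77 to -0.53 and -0.54 to -0.26. Without AET_MET replicate 1 and SED replicate 1 together, 918, 115 and 53 genes were called in these comparisons, 3 collagens in the last, and the fibrillar and basement membrane medians in AET_MET against SED were -1.13 and -0.24. DESeq2 called 8 collagens in each comparison with SED, and 880 genes in AET_MET against AET. Without a filter on low counts there were 7 collagen calls in AET against SED and 731 calls over all genes in AET_MET against AET, and with only the 6 libraries compared 10 collagen calls there. With limma-voom the fibrillar median in AET against SED was -0.14. A filter of 5 CPM in 3 libraries, which left 20 collagens, moved the medians of AET against SED to 0.18 (basement membrane) and -0.12 (others), of AET_MET against SED to -0.28 and -0.44, and of the basement membrane in AET_MET against AET to -0.46. With library sizes alone 767 genes were called in AET_MET against AET, and the basement membrane medians were -0.06 for AET_MET against SED and -0.23 for AET_MET against AET.

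Libraries of the same replicate number deviated little together, with correlations of their deviations from the group means from -0.0509 to 0.184. The highest was between AET_MET replicate 1 and SED replicate 1, the libraries with epidermal reads. With 3 libraries in each group, low correlations cannot exclude a pairing by replicate number. With the replicate block 4, 5 and 5 collagens and 1530, 535 and 358 genes were called in AET against SED, AET_MET against SED and AET_MET against AET. The block ended the calls of Col6a2 in AET_MET against AET and of Col6a5 in AET against SED.

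Some estimates of named genes changed sign, and none of these was a call in the fit of all 9 libraries. In AET against SED, log2 changes were 0.013 for Col22a1 without SED replicate 3, 0.75 for Col3a1 without SED replicate 2, -0.00039 for Col4a1 without the low-count filter and -0.073, -0.031 and -0.0067 without AET replicate 3, SED replicate 1 or SED replicate 3. For Col4a4 they were 0.0063, 0.069 and 0.07 without AET replicate 2, SED replicate 1 or SED replicate 3 and 0.067 without both libraries with epidermal reads, and for Col6a1 -0.023 without SED replicate 1, with or without the other. In AET_MET against SED, Col15a1 was 0.049 with library sizes alone, Col5a3 0.0056 without SED replicate 2, and Col6a5 -0.33, -0.21 and -0.11 without AET_MET replicate 2, SED replicate 1 or both libraries with epidermal reads. There Col4a4 was 0.012 (upper-quartile scaling), 0.092 (library sizes), 0.016 (replicate block), 0.05 (limma-voom), 0.096 and 0.12 with single libraries left out and 0.23 without both libraries with epidermal reads. Col6a3 was 0.015, 0.077, 0.0078 and 0.025 under the same 4 settings, and 0.057 and 0.27 without AET_MET replicate 2 or SED replicate 2. In AET_MET against AET, Col22a1 was 0.072 without AET replicate 2, and Col4a4 -0.005, -0.04, -0.022 and -0.0085 without AET_MET replicate 2, AET_MET replicate 3, AET replicate 2 or AET replicate 3. Over the fits that left out a library, the far ends on the other side of 0 were, in AET against SED, -0.58 for Col22a1, -0.79 for Col3a1, 0.073 for Col4a1, -0.30 for Col4a4 and 0.22 for Col6a1, in AET_MET against SED -0.25 for Col4a4, -0.25 for Col5a3, -0.16 for Col6a3 and 0.61 for Col6a5, and in AET_MET against AET -0.48 for Col22a1 and 0.17 for Col4a4. The causes were not tested. Depth limits the low genes, since 1 count is worth up to 0.0617 CPM.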
